A study of Homo sapiens with 2 samples.

Results

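The RNA exosome subunits EXOSC1 to EXOSC10 were examined in A375 cells, an established human melanoma line, after depletion of THOC2. The members were taken by gene symbol, as all probes annotated to one of these 10 genes among the 34757 gene symbols of the array, which gave 12 of 58199 probes. THOC2 is a subunit of the THO/TREX complex, which couples transcription to mRNA export, and the study used the arrays to ask which transcripts differ when THOC2 is depleted. One culture was transfected with si-THOC2, an siRNA against THOC2, and the other with NC, the control siRNA, and both were harvested after 48 h. RNA of each was hybridised to 1 Agilent SurePrint G3 v3 array, and the 2 arrays shared a slide and a scan. Both groups were the same unmodified line and had received an siRNA, so an untransfected state was not part of the comparison. Depletion was by transient transfection of 1 line, and which of the study's THOC2 siRNAs was hybridised is not given in the sources used here. The groups follow the sample titles and descriptions, whereas the source field of each sample names the opposite condition.

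The RNA exosome is a barrel-shaped complex that degrades or trims RNA from its 3′ end in the nucleus, the nucleolus and the cytoplasm. A ring of RNase PH-like subunits, inactive in human cells, carries a cap of RNA-binding subunits, and the RNA-cutting activity comes from associated nucleases. Nuclear and cytoplasmic cofactors, among them RNA helicases, feed substrates such as ribosomal RNA precursors, upstream promoter transcripts and faulty mRNAs into the complex.

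Each probe is a 60-base oligonucleotide, and the first 30 bases of 7 probes are printed here 5′ to 3′ in the deposited hg19 annotation. EXOSC6 and EXOSC9 are shown because they had the lowest values of the set, EXOSC3 because it was spotted 10 times on each array, EXOSC2 (probes 1 and 3) because several probes allow a comparison within 1 gene, and EXOSC7 and EXOSC10 because their probes span more genome than 60 bases.
EXOSC6 (chr16:70284771-70284830, minus strand): acttggtctggagcagggactacttggaat
EXOSC9 (chr4:122735108-122735167, plus strand): gaaggaagatgatgaaggcggtggtgatca
EXOSC3 (chr9:37780640-37780699, minus strand): ttctccagattggcagaaagttgatatagg
EXOSC2 probe 1 (chr9:133579095-133579154, plus strand): aaagccagaaataatggaggagattgtgat
EXOSC2 probe 3 (chr9:133580140-133580199, plus strand): ctgggaaagcaaagctgttttcatcctata
EXOSC7 (chr3:45038715-45043059, plus strand): cactgctgggttctctatgtggatgtgctg
EXOSC10 (chr1:11126789-11128107, minus strand): tgggaaacaaaagcatgtcctttccaactg
The EXOSC7 probe covers 4345 bases of the genome and the EXOSC10 probe 1319, so each aligns to the genome with a gap, as a probe over a splice junction does. The probes of 3 further subunits lie at chr10:99196170-99196229 (EXOSC1, minus strand), chr19:41898781-41898840 (EXOSC5, minus strand) and chr13:37583331-37583390 (EXOSC8, plus strand). Whether a probe lies in coding or untranslated sequence was not analysed here. The EXOSC10 probe is annotated to a noncoding transcript model of the gene, and the other 11 to protein-coding transcripts.

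No exosome subunit differed by as much as 2-fold between the arrays. The processed signal of every probe was lower with si-THOC2, at 69.0% to 91.9% of its NC value, but the whole si-THOC2 array was dimmer. Its 75th percentile lay 0.31 below that of the NC array on the log2 scale. Values were therefore taken as log2 signal minus the array's 75th percentile, si-THOC2 minus NC, and are called log2 fold changes throughout. On that scale 4 genes lay below 0 (EXOSC1, EXOSC6, EXOSC8 and EXOSC9) and 6 above it, from -0.23 for EXOSC6 to 0.17 for EXOSC7, with a median of 0.10. The median over all 17514 compared genes was 0.02, and 46.6% of them lay below 0. Of the compared probes with a log2 signal over 8, the range of the exosome probes, 37.1% lay below 0. The median of the subunits depended on the processing, at 0.045 with quantile normalization, 0.040 with lowess centring and -0.026 after normexp background correction. That of all compared probes with a log2 signal over 8 moved the same way, from 0.063 to 0.004, 0.002 and -0.041 in that order. The shift was therefore not particular to the subunits. With 1 array per condition there was no test, and the spread between cultures is unknown.

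All 12 probes were detected well above background with both siRNAs and entered the comparison of 25345 probes, those well above background on at least 1 array. Of these 12 probes, 0 were 2-fold or more lower and 0 were 2-fold or more higher, where 3.33% of all compared probes (844) were lower and 2.93% (743) higher. Lower probes made up 53.2% of all calls with this scaling, 42.5% with lowess centring and 29.5% after normexp background correction. Most of those calls came from dim probes. Among the 10015 compared probes with a log2 signal over 8, the range of all 12 exosome probes, 16 were 2-fold or more lower and 17 higher, the median was 0.06, and 96.4% lay within 0.5 of 0. The middle 90% of these bright probes ran from -0.31 to 0.38, and all 12 exosome probes lay inside that interval.

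**Figure D1:**
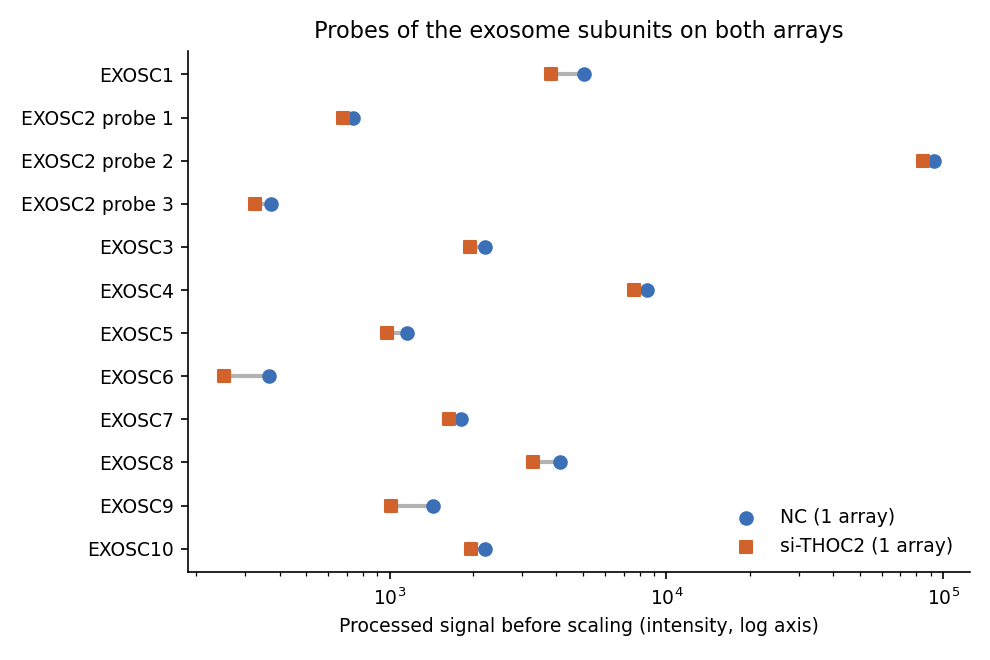
Processed signal (intensity, log axis, before scaling) of the 12 exosome probes on the NC array (circles) and the si-THOC2 array (squares), 1 array each. Every square lies to the left of its circle, by the widest margin for EXOSC6 and EXOSC9; signals of different probes are not comparable with one another.

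The target of the siRNA was lower on the array labelled THOC2. The THOC2 probe at chrX:122734486-122734545 had a signal of 136 in the NC cells and 40.9 after si-THOC2, which is -1.42 as log2 fold change. The probe at chrX:122747960-122748019 read 67.3 and 35.1, a log2 fold change of -0.63. Their mean was -1.03, and it was -0.51 after normexp background correction, which took THOC2 short of 2-fold. Of 8 melanocyte lineage markers, 5 were well above background on at least 1 array, with SOX10 at 6196 and 5196, whereas PMEL, TYR and TYRP1 were not on either array. Between the arrays these markers went both ways, with S100B at 199 and 102 (log2 fold change -0.66), MITF at -0.03, SOX10 at 0.06 and DCT at 18.0 and 24.4 (0.75). MLANA was well above background with si-THOC2 (18.7) and not with NC (2.94), at least 1.58-fold higher, taken against the lowest signal well above background on the NC array. Among markers of other cell types, KRT10 read 32306 and 20623 and KRT14 read 83.9 and 104 (log2 fold change 0.62) on the probe measured on both arrays. Its other probe, not well above background with NC, was at least 2.28-fold higher with si-THOC2. KRT5 and KRT1 were not well above background on either array, and the leukocyte and endothelial markers PTPRC, CD3E, CD14, PECAM1 and CDH5 read at most 37.4. The part of these differences in the exosome values was not tested, and in RNA of a whole culture fewer cells of a type and less RNA per cell cannot be told apart.

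Repeated spots gave the technical error. For probes with a log2 signal over 8, the log2 fold change of a single pair of spots had a median SD of 0.05 (244 probes spotted repeatedly). This technical SD covers the printing and reading of the array only and leaves out the culture, the transfection and the labelling. EXOSC6 (-0.23) and EXOSC9 (-0.19) had the lowest log2 fold changes and lay within 1 technical SD of each other. EXOSC1 (-0.09), EXOSC8 (-0.02) and EXOSC5 (0.07) followed, each more than 1 technical SD from its neighbours. EXOSC3 (0.13), EXOSC4 (0.15), EXOSC10 (0.15), EXOSC2 (0.16) and EXOSC7 (0.17) spanned less than 1 technical SD. These gaps do not order the genes, because the technical SD is not that of a difference between probes and leaves out the culture. They also depended on the processing. With quantile normalization EXOSC5 (0.021) and EXOSC3 (0.069) lay within 1 technical SD of each other. With centring by block EXOSC7 (0.066) and EXOSC2 (0.175) lay more than 1 technical SD apart.

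**Figure D2:**
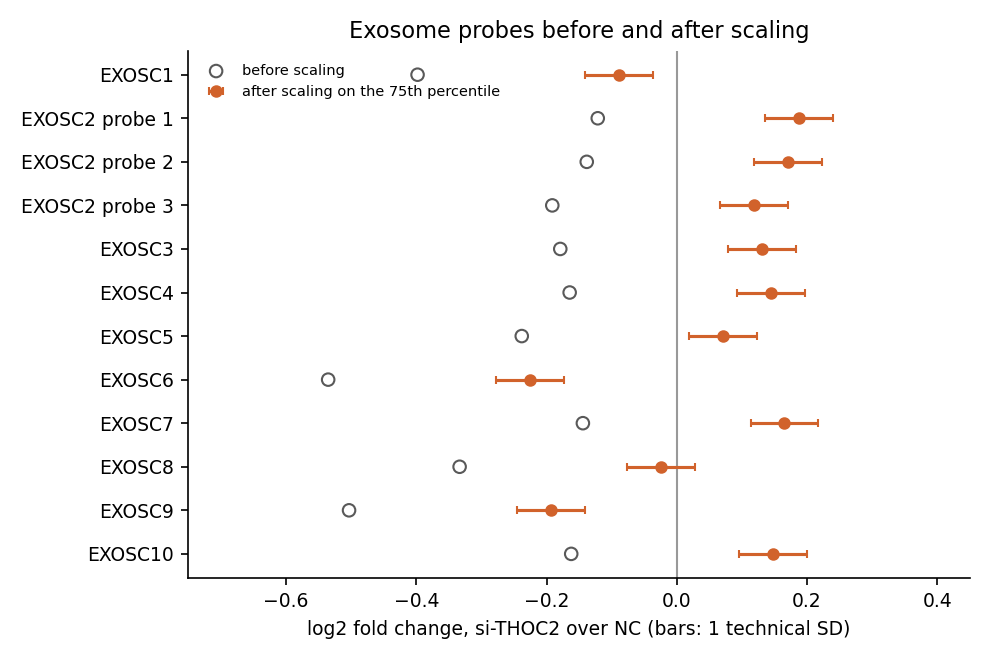
Log2 fold change, si-THOC2 over NC, of the 12 exosome probes before scaling (open circles) and after scaling on the 75th percentile (filled circles; bars, 1 technical SD of a spot pair, not a spread between cultures). Every open circle lies below 0, and after scaling 8 probes lie above 0 and 4 below.

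The cap subunits EXOSC1, EXOSC2 and EXOSC3 each carry an S1 domain and bind RNA at the entry of the barrel. Their median log2 fold change was 0.13, with 1 gene below 0 and 2 above. EXOSC1 had a signal of 5028 with NC and of 3816 with si-THOC2, 75.9% of the control and a log2 fold change of -0.09. Of 982 compared probes within 0.5 log2 units of its signal, 16% had a lower log2 fold change than EXOSC1.

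The 3 probes of EXOSC2 differed little from one another in their log2 fold changes. Probe 1 read 737 and 677 (log2 fold change 0.19), probe 2 read 92773 and 84298 (0.17), and probe 3 read 373 and 327 (0.12), all within 2 technical SDs of one another. Probe 2 shares runs of 20 bases with 11 other probes, 3 on the same strand and 8 on the opposite strand, and none of the other 11 exosome probes shares such a run with any probe. Whether it also reads RNA of other genes was not tested. The 11 probes that share bases with it had log2 fold changes of -0.21 to 0.43 with a median of 0.31, and one of them, annotated to TSR1, read 104853 and 95193 (0.17). Without probe 2 the mean of EXOSC2 was 0.15 in place of 0.16, an alternative chosen after seeing the data.

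EXOSC3 was measured most precisely, with 10 spots on each array. With NC its spots read from 2106 to 2343 with a median of 2195, and with si-THOC2 from 1852 to 2104 with a median of 1941. The ranges did not overlap before scaling, with the si-THOC2 spots the lower. The mean was 2207 ± 63.8 with NC and 1950 ± 83.4 with si-THOC2 (SD over 10 spots of 1 array), a coefficient of variation of 2.89% and 4.28%. After scaling, the 10 pairs of spots gave a mean log2 fold change of 0.13 ± 0.05 (SD), from 0.06 to 0.20, and all 10 were above 0. The direction of this gene thus turned with the scaling, since its raw decrease of 0.18 on the log2 scale was smaller than that of the whole array. The 10 pairs share that scaling and the same 2 arrays, so they are not replicates of a condition. Among 1486 compared probes within 0.5 log2 units of the EXOSC3 signal, 64.2% were lower than EXOSC3. After normexp background correction EXOSC3 was at 0.015.

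**Figure D3:**
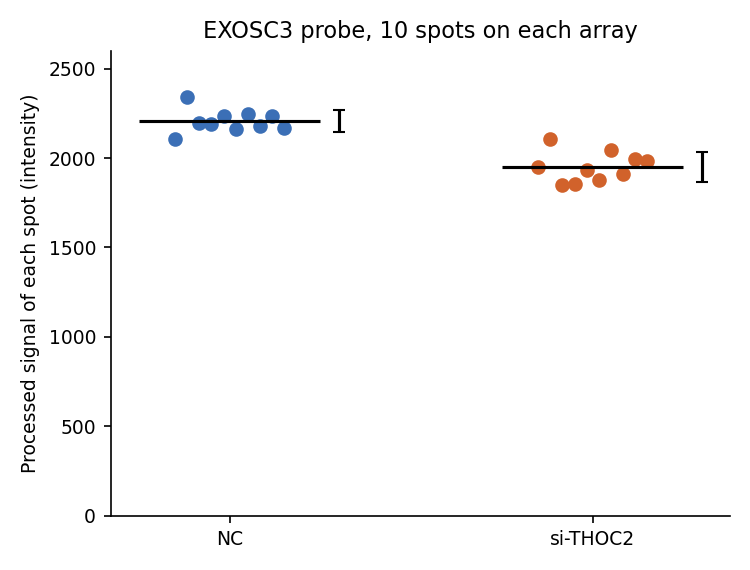
Processed signal (intensity, before scaling, axis from 0) of each of the 10 EXOSC3 spots on the NC and the si-THOC2 array; lines are means and bars 1 SD over the spots of 1 array. The lowest NC spot reads 2106 and the highest si-THOC2 spot 2104.

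The ring subunits EXOSC4 to EXOSC9 form the channel through which RNA passes to the nuclease. They divided evenly, with 3 genes below 0 and 3 above and a median log2 fold change of 0.02. The lowest 2 values of all subunits were in the ring. EXOSC6 read 365 with NC and 252 with si-THOC2, 69.0% of the control signal and a log2 fold change of -0.23, and 14.1% of its 2699 neighbours in signal (compared probes within 0.5 log2 units of it) lay lower. EXOSC9, long known as an autoantigen in polymyositis and scleroderma, read 1429 and 1008, 70.6% of the control signal and a log2 fold change of -0.19. Of 1850 probes of like signal, taken the same way, 10.4% were lower than EXOSC9. Both values were more than 3 technical SDs below 0 but within the middle 90% of bright probes. EXOSC8 read 4140 and 3286, and its log2 fold change of -0.02 was smaller than 1 technical SD.

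The other ring subunits lay above 0. EXOSC4, probed at chr8:145135432-145135491, read 8520 and 7602 (log2 fold change 0.15), EXOSC5 read 1154 and 978 (0.07), and EXOSC7 read 1813 and 1640 (0.17). Their signals with si-THOC2 were 84.8% to 90.5% of the control, above the ratio of the arrays' 75th percentiles. Of probes of like signal, 69.5% were lower than EXOSC4, 52.5% lower than EXOSC5 and 71.3% lower than EXOSC7, so EXOSC5 lay near the middle of its neighbours in signal. EXOSC5 was also the only subunit whose direction turned under an alternative, to -0.06 after normexp background correction.

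EXOSC10 is the nuclease of the set, a distributive exonuclease found mainly in the nucleolus, and a further autoantigen of the same diseases. It read 2208 with NC and 1973 with si-THOC2, 89.4% of the control signal and a log2 fold change of 0.15, and 67.2% of 1482 probes of like signal were lower. DIS3, the processive nuclease that sits at the exit of the channel, could not be compared, since its single probe read 6.13 and 4.72 and was not well above background on either array. DIS3L, its cytoplasmic paralog, read 352 and 323 (log2 fold change 0.19) on 1 of its 2 probes, and the other was not well above background.

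**Figure D4:**
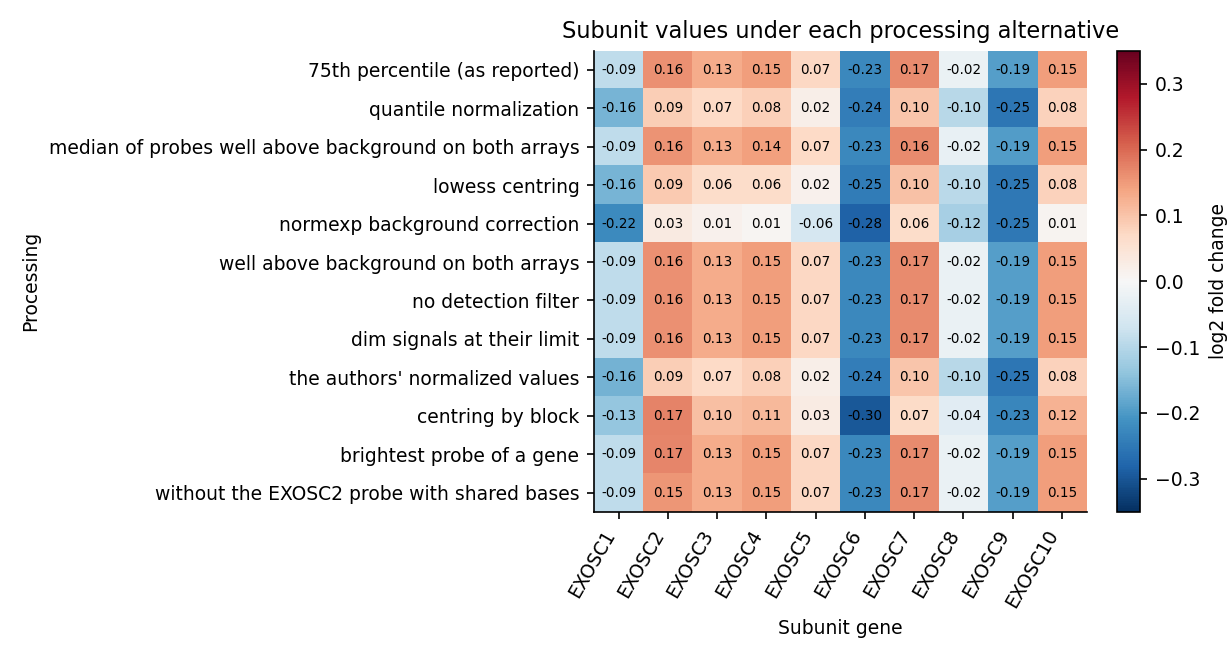
Log2 fold change (si-THOC2 over NC, colour and printed value) of each exosome subunit (columns) under the reported scaling and each of 11 processing alternatives (rows). EXOSC6 and EXOSC9 are the 2 lowest in every row, and EXOSC5 after normexp background correction is the only cell of a subunit whose sign differs from the reported value. Rows that change only the detection filter or dim signals repeat the reported values, since every exosome probe was well above background on both arrays.

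Nuclear cofactors of the exosome spread evenly around 0. Of 17 genes, 16 were compared, 8 below 0 and 8 above, with a median log2 fold change of 0.02 and none past 2-fold. With each gene taken as the mean of its probes measured on both arrays, the genes ran from -0.25 (NCBP2) to 0.29 (ZC3H18). MTREX, the helicase that threads RNA into the nuclear exosome (SKIV2L2 on the array), read 938 and 778 (0.04). Its partners in the NEXT complex, which targets promoter upstream transcripts, were ZCCHC8 at -0.07 and RBM7 at 0.14. In the TRAMP complex, which adds short oligo(A) tails, ZCCHC7 was at -0.11, with 1 probe at -0.27 and the other at 0.05. Of the poly(A) polymerases of that complex, TENT4A (PAPD7) was at 0.15 and TENT4B (PAPD5) was not well above background. None of these helicase and tailing genes differed by more than 0.27 on the log2 scale.

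Of the factors that act on polyadenylated nuclear RNA, PABPN1, the nuclear poly(A) binding protein, read 6441 and 4425 (log2 fold change -0.23), and its partner ZFC3H1 was at -0.10. The cap-binding proteins, which join capped RNA both to export and to the exosome, were lower as well. NCBP2 read 639 and 433 (-0.25), while NCBP1 read 269 and 184 (-0.23) on the probe measured on both arrays. The other NCBP1 probe read 18.5 with NC and 6.69 with si-THOC2, not well above background there, so no fold can be given for it, and the gene's mean over both probes, -0.70, rests on it. Their partners SRRT, which links the cap to the exosome or to other machinery, and ZC3H18, a bridge between the cap and NEXT, were higher, at 0.20 (3 probes, 0.15 to 0.24) and 0.29 (2 probes, 0.18 and 0.39). The remaining nuclear cofactors were the rRNA processing factors C1D (-0.08) and MPHOSPH6 (-0.01), the ATPase NVL (0.10) and WDR74 (2866 and 2782, 0.27, on the probe measured on both arrays), which act on MTREX in ribosome assembly, and NRDE2 (0.22), which binds MTREX.

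The cytoplasmic cofactors of the exosome are the SKI complex and HBS1L, whose short isoform joins SKI to the exosome. They were compared in full, with 2 of 4 below 0, a median of -0.04 and none past 2-fold. TTC37 (SKIC3), the scaffold of SKI, read 342 and 202, a log2 fold change of -0.45. HBS1L read 328 and 223 (-0.24) on 1 of 4 probes, and the other 3 were not well above background. Which HBS1L isoform the measured probe reads was not analysed, so its value cannot be assigned to the short isoform. The helicase SKIV2L (SKIC2) was at 0.17, and WDR61 (SKIC8), which also belongs to another nuclear complex, read 788 and 742 (0.22). The difference of TTC37 was thus further from 0 than that of any exosome subunit.

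Genes of mRNA decay outside the exosome were compared in 3 lists. The 8 genes of 5′ to 3′ decay and DIS3L2, a 3′ to 5′ exonuclease placed with them, had a median log2 fold change of 0.21 with 2 below 0. That median is the value of DIS3L2 itself, whose 3 compared probes disagreed, at -0.32, 0.27 and 0.66, with signals of at most 98.3. The median was 0.13 without DIS3L2, an alternative chosen after seeing the data, and 0.086 with the brightest probe of a gene. Of the other lists, the 10 deadenylation genes had a median of -0.03 with 5 below 0, and the 8 genes of nonsense-mediated decay had a median of 0.01 with 3 below 0. Over these 27 genes, 10 lay below 0 and 17 above, none was past 2-fold, and the median was 0.05. The lowest were DXO, which removes faulty caps (628 and 345, log2 fold change -0.56), and XRN1, the cytoplasmic 5′ to 3′ exonuclease (89.7 and 55.1, -0.39). The highest were PAN3, a deadenylase subunit (92.8 and 92.7, 0.31), and EDC4, a decapping scaffold (0.29 over 2 probes, 0.07 and 0.51). All 10 exosome subunits lay between these extremes, and no list was tested against another.

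**Figure D5:**
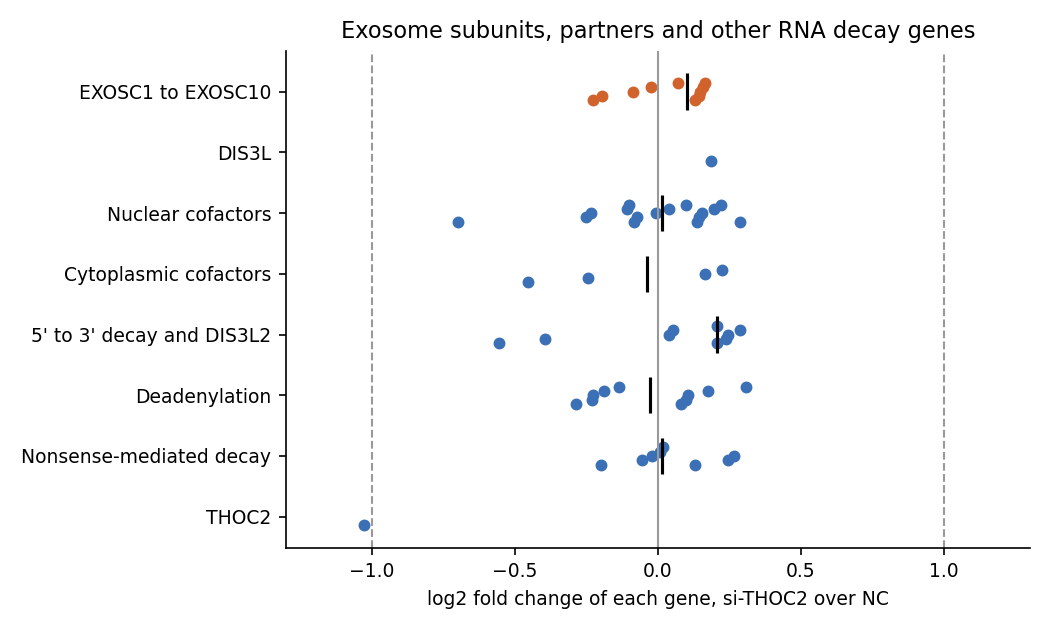
Log2 fold change (si-THOC2 over NC) of each compared gene, a point per gene, for EXOSC1 to EXOSC10, their partners, other RNA decay genes and THOC2; short bars are medians and dashed lines mark 2-fold. The exosome subunits lie between -0.23 and 0.17, and THOC2, at -1.03, is the only gene past a dashed line; the lowest nuclear cofactor point, NCBP1 at -0.70, includes a probe not well above background with si-THOC2.

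Promoter sequences of the subunits were read from RefSeq windows (GRCh38.p14, 250 bases before to 50 after the start) and were matched for 8 of 10 members, without EXOSC1 and EXOSC4. The windows were rich in CpG, with a median of 26 CpG dinucleotides, where the median of all 35116 windows was 14. With each motif searched on both strands, a GC box (GGGCGG) was found in 7 of the 8 windows and in 45.0% of all windows, and the CCAAT box (CCAAT) in 4 of 8 and in 34.6% of all. A TATA box (TATAAA) was found in EXOSC8 alone, against 11.5% of all windows, and the E-box CACGTG in EXOSC5 alone, against 7.26%. The ETS letters CCGGAAG were in 0 of the 8 windows and in 10.3% of all. These matches describe the sequences only. None of these motifs was in all of EXOSC6, EXOSC8 and EXOSC9, the matched subunits below 0. The GC box was in EXOSC6 and EXOSC8 and not in EXOSC9.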

How the data were processed

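RNA of 1 si-THOC2 and 1 NC culture was measured on 1 array each. The deposited scanner output holds an intensity for each spot. Per the labels, the authors ran Feature Extraction 10.7.1.1, which subtracts background and marks outliers, saturation and signals well above background. The authors also deposited normalized log2 values, whose distributions are equal between arrays (sorted values differ by at most 0.000788), and a table of their own comparison with fold changes, which was not used. Their methods name Student's test, which cannot be run on single arrays.

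Control spots and outlier spots (147 with NC, 168 with si-THOC2) were removed. There were 0 saturated spots. Log2 values of repeated spots were averaged for each probe. Each array was centred on its 75th percentile. Comparisons took the probes that passed Feature Extraction's mark for signal well above background with either siRNA, 24616 probes passing with NC and 22936 with si-THOC2, and called at 2-fold. Genes with several compared probes were given their mean. The number of arrays limits the precision. The members, the lists and the alternatives were chosen with earlier results of these data known. Named were all EXOSC genes, THOC2, every gene of the exosome nuclease and cofactor lists, and the 2 lowest and 2 highest genes of the 3 decay lists. All 79 genes of the lists, markers included, were on the array, some under older symbols, and some items are not reported here. Probe positions are those of the deposited annotation (hg19). The comparison was tested on simulated data with planted changes larger than 2-fold. That simulation did not cover differences as small as those of the subunits. Python 3.11.15, numpy 2.4.6, pandas 2.3.3, scipy 1.17.1, statsmodels 0.14.6, R 4.3.3 and limma 3.58.1 were used. Alternatives were quantile normalization, the median of the probes detected on both arrays, lowess (span 0.3), normexp (offset 50), the authors' normalized values, detection on both arrays, all probes without a filter, dim signals set to their limit, centring by blocks of the array (16 by 8), the brightest probe of a gene and a fold of 3.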

Additional observations from a re-analysis of the deposited data

How the results depend on the processing

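Under all 11 alternatives run on the subunits, 0 of 10 passed 2-fold, and 4 lay below 0 and 6 above, except that normexp background correction gave 5 and 5. Every exosome probe was well above background on both arrays. Detection on both arrays, no filter and dim signals at their limit therefore could not move a subunit. The brightest probe and leaving out the EXOSC2 probe with shared bases could move EXOSC2 alone. The median of probes on both arrays moves every gene equally, and the authors' values nearly repeated quantile normalization. The ranges were -0.30 to -0.23 for EXOSC6, -0.25 to -0.19 for EXOSC9, -0.22 to -0.09 for EXOSC1 and -0.12 to -0.02 for EXOSC8. The subunits' median of 0.10 became 0.045 with quantile normalization and with the authors' normalized values, 0.047 with centring by block, 0.040 with lowess centring and -0.026 with normexp, which thus turned its sign. The median of all compared probes with a log2 signal over 8 also moved. It went from 0.063 to 0.004 with quantile normalization and the authors' values, 0.030 by block, 0.002 with lowess and -0.041 with normexp. The counts of probes lower and higher by 2-fold became 33 and 79 with normexp, 81 and 184 for probes well above background on both arrays, 225 and 476 with dim signals at their limit, 1929 and 3127 without the detection filter and 502 and 447 at a fold of 3. Lower probes then made up 30.6% of calls for detection on both arrays, 32.1% with dim signals at their limit and 38.2% without the filter, where the median of all probes was 0.31. With normexp DIS3L became 0.065, the median of the cytoplasmic cofactors -0.106 and that of 5′ to 3′ decay with DIS3L2 0.105. Without the detection filter the cytoplasmic cofactors were at 0.080 and deadenylation at 0.089, and with centring by block these were -0.099 and -0.120. The list of 5′ to 3′ decay with DIS3L2 was at 0.086 with the brightest probe of a gene and at 0.130 without DIS3L2. The cause of these shifts was not tested. No paired analysis was possible because each condition has 1 array. With 1 array a condition, leaving out a replicate was not possible either.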

Other observations

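Besides the subunits, the deposited annotation gives the Gene Ontology term for the exosome complex to MPHOSPH6 (log2 fold change -0.01) and SKIV2L2 (0.04), both within 1 technical SD of 0. Probes for the long noncoding RNAs lnc-EXOSC6-2, lnc-EXOSC6-3 and lnc-EXOSC8-1, named for their nearest gene, were not well above background on either array, so EXOSC6 and EXOSC8 could not be set beside them.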
